A study of Mus musculus with 20 samples.

Results

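The regions described here are stretches of mouse chromosomes 1 to 19 where a peak of H3K27me3 was called in both libraries of wild-type cells and in neither library of Rb1L/L cells. They were found by merging the peaks of all 4 H3K27me3 lists wherever they shared at least 1 bp and keeping the merged regions with that pattern of calls. This gave 655 of 85840 merged regions, or 0.763%, and they are called WT-only regions below. Since the regions were chosen by their H3K27me3 peak calls, the calls, scores and widths of H3K27me3 at these regions are given as a description with no test.

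The cells were mouse embryonic fibroblasts (MEFs), primary connective tissue cells, from C57BL/6 E13.5 embryos, used at passage 4 while cycling asynchronously. Chromatin immunoprecipitation with sequencing (ChIP-seq) was done in Rb1L/L cells, which are homozygous for a mutant Rb1 allele (labelled dL in sample titles), and in wild-type cells (WT). Both genotypes were probed with 4 antibodies: H3K27me3 and TFIIIC-220, each with 2 libraries in either genotype, and CAP-D3 and CAP-H2, each with 1. Cells for H3K27me3, CAP-D3 and CAP-H2 were fixed with the protein crosslinker EGS (2 mM) and then 1% formaldehyde. For TFIIIC, only 1% formaldehyde was used. By its title, the study asks how pRb, the retinoblastoma protein encoded by Rb1, recruits condensin II to promoters. The labels do not say whether the 2 libraries of a group came from separate cultures, so a p-value here reflects how far the libraries vary, and that variation may be technical.

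H3K27me3 is trimethylation of lysine 27 on histone H3, placed by Polycomb repressive complex 2 and bound by Polycomb repressive complex 1. It lies over silent developmental genes, often as domains many kilobases wide, and also as short stretches elsewhere. pRb holds repressive factors at E2F target genes, partly through a cleft that binds LXCXE motifs. CAP-D3 and CAP-H2 are subunits of condensin II, a ring-shaped complex that compacts chromosomes, and TFIIIC is the factor that brings RNA polymerase III to tRNA genes. Regions are named by their mm9 coordinates, without genes or sequences, because no annotation or genome of that build was at hand.

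WT-only regions were the smallest of the 6 classes of regions called in exactly 2 of the 4 libraries. They numbered 655, against 4613 regions (5.37%) called in both Rb1L/L libraries and neither WT library. Regions called in 1 WT and 1 Rb1L/L library numbered 844 for WT 1 with Rb1L/L 1, 1327 for WT 1 with Rb1L/L 2, 2232 for WT 2 with Rb1L/L 1 and 4342 for WT 2 with Rb1L/L 2. Most regions called in both WT libraries were also called in the mutant. Of 9562 such regions, 7462 (78.0%) were called in both Rb1L/L libraries, 1445 in 1 of them, and 655 (6.85%) in neither. In the opposite direction, 4613 of the 17516 regions called in both Rb1L/L libraries (26.3%) were called in neither WT library. Leaving out a library judged its genotype by 1 library and the other by 2, which by itself moved the counts toward the former. How far the single libraries shaped the balance of the classes cannot be read from such counts. Without WT replicate 1, 15133 regions were called in WT alone and 5953 in Rb1L/L alone, the opposite direction. Without WT replicate 2 it was 5406 and 9360. Without Rb1L/L replicate 1 there were 1211 and 30308, and without Rb1L/L replicate 2 there were 1880 and 20935.

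List length moved with these numbers. The Rb1L/L lists held 43610 and 55620 H3K27me3 peaks on chromosomes 1 to 19 and covered 44.9 and 58.7 Mb, and the WT lists held 24634 and 42944 peaks and covered 23.9 and 42.6 Mb. With the 24634 top-scoring peaks taken from every list, there were 739 WT-only regions, 1699 regions of Rb1L/L alone and 923 to 1658 in the classes of 1 WT and 1 Rb1L/L library. WT-only regions were also the fewest of the 6 classes at a score of at least 100 (710) and with peaks merged across gaps of up to 1 kb (406). The number of sequencing reads behind each list is not known, and its part in these counts was not tested.

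**Figure D1:**
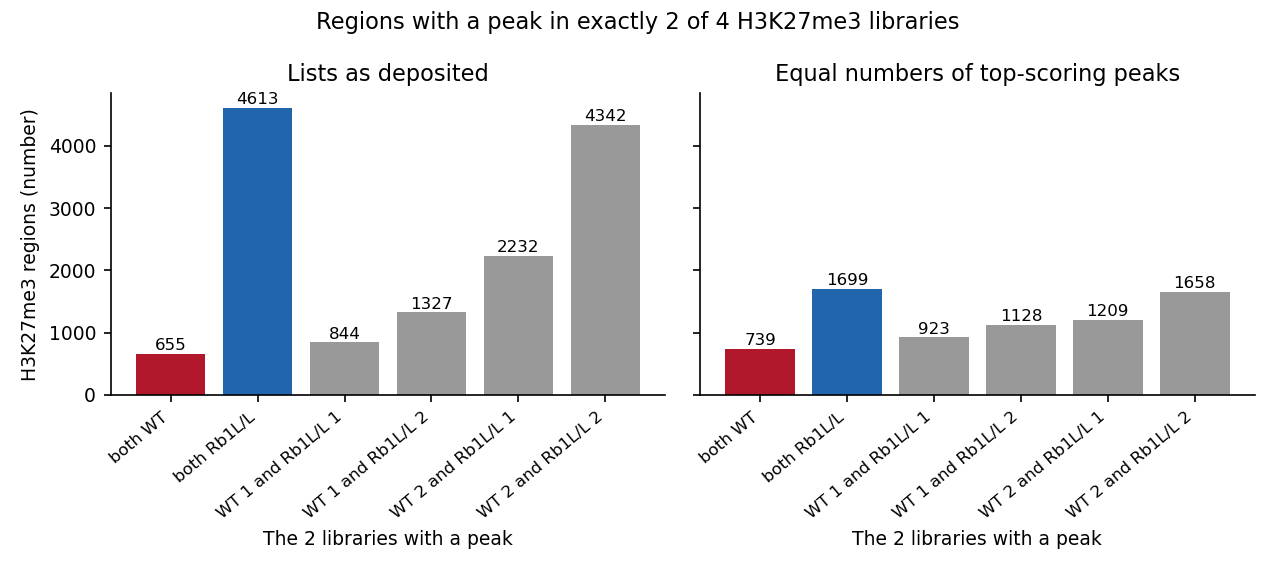
Number of H3K27me3 regions with a peak in exactly 2 of the 4 libraries, by the 2 libraries concerned, for the lists as deposited (left) and for 24634 top-scoring peaks per list (right). WT-only regions (655 and 739) are the lowest bar in both panels, and regions of both Rb1L/L libraries fall from 4613 to 1699 when list lengths are made equal.

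WT-only regions were short, single peaks. In 641 of the 655, each WT library contributed a single peak. Their median width was 891 bp (25th to 75th percentile 738 to 1070 bp). It was 897 to 985 bp in the 4 classes of 1 WT and 1 Rb1L/L library, and 1006 bp for regions of both Rb1L/L libraries alone. Regions of all 4 libraries had a median of 3181.5 bp, and all merged regions 648 bp. The narrowest WT-only region spanned 529 bp, 629 lay between 500 and 1500 bp, and 4 exceeded 2 kb. The 2 WT peaks of a region overlapped by a median of 425 bp, which was 75.05% of the shorter stretch, and in 61 regions they shared under 100 bp. Together the regions covered 674 kb, of which a single region on chromosome 8 took up 63139 bp.

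The scores were moderate in both WT lists. The score is the authors' own, deposited without a name, and is used only to rank peaks within a list. Many peaks share a score of 3100, with 643 in WT 1 and 887 in WT 2. In WT 1 the regions had a median score of 229 (25th to 75th percentile 189 to 281), where the median peak of that list had 262. In WT 2 their median was 171 (138 to 225), where that of the list was 187. The median percentile of the regions' scores was 36.2 in the list of WT 1 and 42.2 in that of WT 2. Few were among the strongest peaks, with 34 of 655 (5.19%) in the top 25% of WT 1 and 69 (10.5%) in the top 25% of WT 2. These scores were close to those of regions found in 1 WT and 1 Rb1L/L library, whose median was 231 and 233 where WT 1 was the WT library and 177 and 176 where it was WT 2. Regions of all 4 libraries had median scores of 822 and 695 in the Rb1L/L lists and 417 and 540 in the WT lists. Over all merged regions these medians were 250 and 145 in Rb1L/L and 257 and 184 in WT. Scores of different lists are not on a common scale and are not compared.

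**Figure D2:**
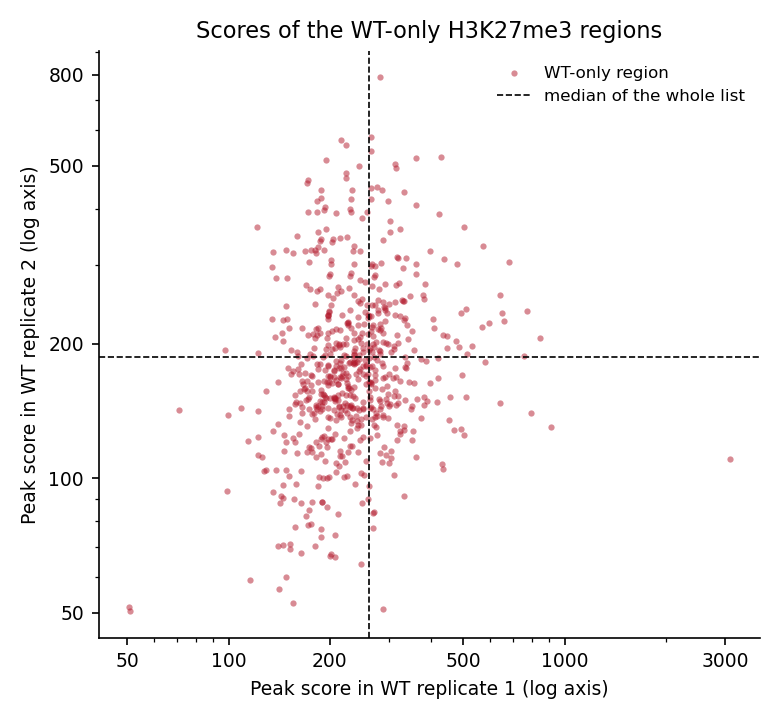
Peak score of each of the 655 WT-only regions in WT replicate 1 (x axis) and WT replicate 2 (y axis), both on log axes. Dashed lines mark the median score of all peaks on chromosomes 1 to 19 in each list, 262 and 187; most regions lie between 100 and 500 in both lists, and the point at 3100 in replicate 1 is the 63139 bp region of chromosome 8.

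The boundary of the class was a matter of small differences at some regions. At the lower end, the regions with the lowest scores lay on chromosome 4 from 38932788 to 38933611 (51.0 in WT 1 and 50.4 in WT 2) and on chromosome 8 from 45158897 to 45159594 (50.4 and 51.6), next to the lists' own minimum of about 50. In 52 of the 655, the lower of the 2 WT scores was under 100. Just outside the class were the 1445 regions called in both WT libraries and 1 Rb1L/L library, of which 105 had an Rb1L/L score under 100. The lowest was on chromosome 12 from 45650584 to 45651997, with 51.9 in Rb1L/L 2, and 424 and 338 in WT 1 and WT 2. The absence of a call says only that no peak reached the score needed for the list, since the lists give no value below it.

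Most WT-only regions lay close to H3K27me3 peaks of the mutant. An Rb1L/L peak was found within 1 kb of 373 regions (56.9%), within 5 kb of 562 (85.8%) and within 100 kb of 649 (99.1%), and the median distance was 779 bp. Of the 655, 304 (46.4%) had an Rb1L/L peak within 5 kb on both sides. The same kind of distance, from a region to the nearest peak of the libraries that lacked it, was taken for other classes. In the 4 classes of 1 WT and 1 Rb1L/L library its median was 863 to 1419.5 bp. Such peaks lay within 1 kb of 41.9% to 53.6% of those regions, within 5 kb of 75.3% to 84.8%, and on both sides for 31.1% to 43.8%. For regions of Rb1L/L alone, a WT peak lay at a median of 1301 bp and on both sides for 33.5%. It was within 1 kb of 44.1% of them and within 5 kb of 76.8%. The lists differ in length, and the part of that in these distances was not tested.

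**Figure D3:**
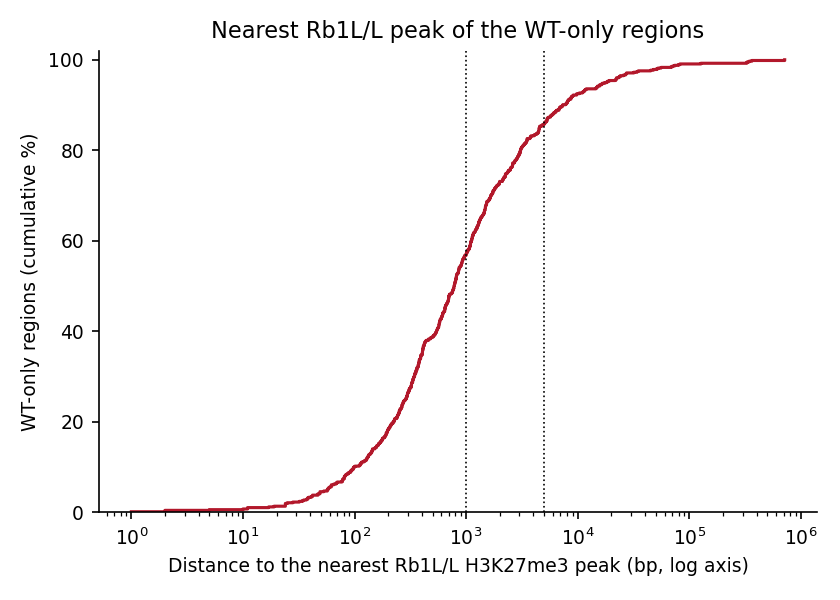
Cumulative share of the 655 WT-only regions (y axis, %) against the distance to the nearest Rb1L/L H3K27me3 peak (x axis, bp, log axis). Dotted lines stand at 1 kb, reached by 56.9% of the regions, and 5 kb, reached by 85.8%.

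The surroundings of the regions held mutant and WT peaks alike. Within 5 kb on either side, outside the region itself, 67.8% and 77.6% of WT-only regions had a peak of Rb1L/L 1 and 2, and 46.3% and 70.1% had another peak of WT 1 and 2. Peaks covered a mean of 12.02% and 16.6% of this flanking sequence in Rb1L/L and 6.07% and 11.8% in WT. Flanks of regions called in 1 WT and 1 Rb1L/L library were covered to 12.6% and 17.5% in Rb1L/L and to 5.97% and 11.7% in WT. Mean coverage of the flanks ranked the 4 libraries as their total covered length did, while the share of regions with a flanking peak did not, being higher for WT 2 than for Rb1L/L 1. Regions called in all 4 libraries lay within 5 kb of 174 WT-only regions (26.6%, 95% exact binomial interval 23.2 to 30.1), and of 27.3% to 32.0% of the regions in the 4 classes of 1 WT and 1 Rb1L/L library. Intervals cover counting error only, here and below.

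**Figure D4:**
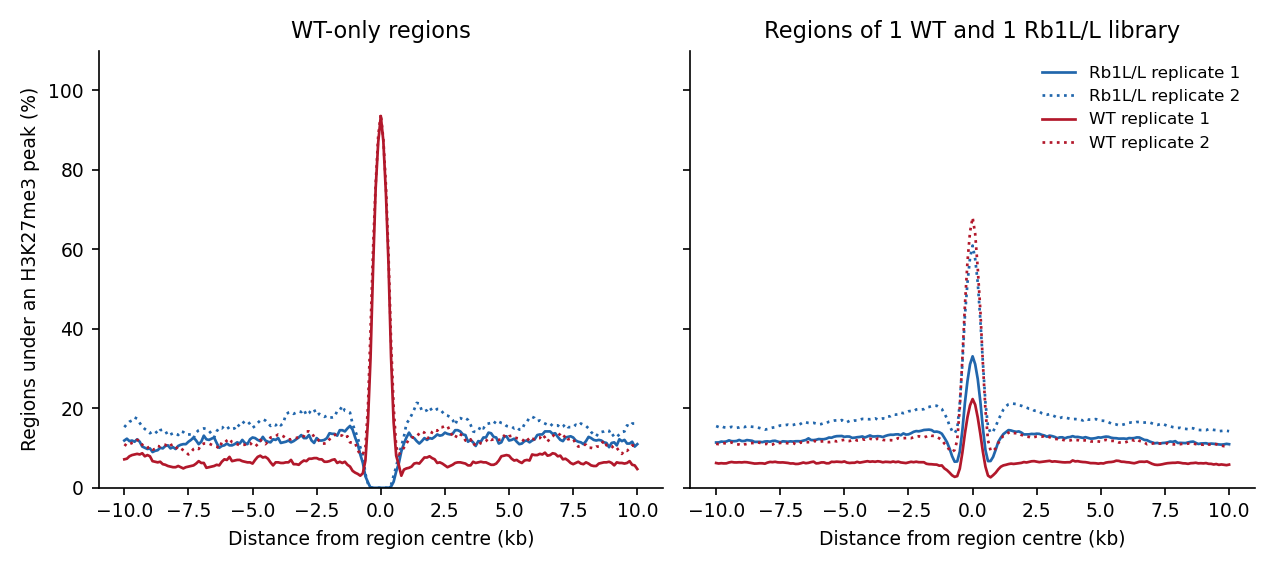
Share of regions under an H3K27me3 peak (y axis, %) at each distance from the region centre (x axis, kb), for the 655 WT-only regions (left) and the 8745 regions of 1 WT and 1 Rb1L/L library (right), with a line per library. The peak at the centre of the left panel and the absence of Rb1L/L there are set by the choice of regions; 5 kb from the centre on the side of lower coordinates, Rb1L/L peaks cover 12.7% and 15.1% of WT-only regions, and WT peaks 6.11% and 10.7%.

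The 12 regions with the highest lower score of the 2 WT libraries were 916 to 1637 bp wide. The leading region, on chromosome 5 from 36134482 to 36136118, scored 430.1 in WT 1 and 524 in WT 2, and its nearest Rb1L/L peak was 2832 bp away. It also carried TFIIIC peaks with scores of 225 and 1670 in Rb1L/L 1 and 2, and of 647 in WT 2. The next, on chromosome 2 from 164801477 to 164802977, scored 423 and 389.7, but its WT peaks shared only 43 bp and an Rb1L/L peak began 93 bp away. Chromosome 6 from 85062876 to 85063938 scored 502 and 364, with an Rb1L/L peak at 583 bp. Of the 12 regions, 7 had an Rb1L/L peak within 1 kb, the closest at 11 bp (chromosome 10 from 77142172 to 77143262, scores 313 and 504).

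Some of the strong regions stood farther from any mutant peak. On chromosome 5 from 145463685 to 145464600, with scores of 361 and 409, the nearest Rb1L/L peak was 47708 bp away, and on chromosome 1 from 193808131 to 193809605, with scores of 573 and 331, it was 6481 bp away. Both carried a TFIIIC peak in both Rb1L/L libraries and in WT 2. The region on chromosome 7 from 28121908 to 28123500, with H3K27me3 scores of 362 and 522, was the only region of these 12 with a condensin II peak, a CAP-D3 peak of WT cells with a score of 399. Of the 12 regions, 5 had TFIIIC in both Rb1L/L libraries, as had 18.9% of the 655 and 16.6% of all merged regions. None of the 12 had it in both WT libraries, where 7.18% of the 655 and 6.09% of all merged regions did. Neither TFIIIC nor condensin II was called at 4 of the 12, against 54.0% of the 655 and 57.2% of all merged regions. With 12 regions chosen by score, nothing was tested.

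The most isolated WT-only regions were few. The 6 regions with no Rb1L/L peak within 100 kb, singled out after their values were seen, had median scores of 175 in WT 1 and 109 in WT 2. They included the regions with the lowest lower WT scores of the class, 50.39 and 50.43, which pull these medians down. The one with the highest lower score lay on chromosome 5 from 43272341 to 43273077, with scores of 190 and 145, and 343932 bp from the nearest Rb1L/L peak. Another of the 6, the low-scoring region of chromosome 8 that starts at 45158897, carried TFIIIC in all 4 libraries, CAP-D3 in both genotypes and CAP-H2 in Rb1L/L. The farthest lay on chromosome 4 from 51130573 to 51131710, with scores of 174 and 143, at 715361 bp. The 93 regions more than 5 kb from a mutant peak had median scores of 211 and 147, against 231 and 183 for the 373 regions within 1 kb of a mutant peak.

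The widest WT-only region was unlike the others. It spanned 63139 bp on chromosome 8 from 126061171 to 126124309 and was a single peak in each WT library, of 27097 bp with a score of 3100 in WT 1 and of 63139 bp with a score of 110.5 in WT 2. The nearest Rb1L/L H3K27me3 peak was 22140 bp away. CAP-D3 was called there as 8 peaks over 5252 bp in Rb1L/L and as 28 peaks over 18512 bp in WT, and CAP-H2 as 3 peaks over 2217 bp in Rb1L/L and 10 peaks over 6871 bp in WT. No TFIIIC peak was called in the region in any of the 4 libraries.

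The next widest regions lay near each other on chromosome 6, and both held TFIIIC in all 4 libraries. From 47627063 to 47630523 (3461 bp), H3K27me3 scored 305 in WT 1 and 111.2 in WT 2, and TFIIIC scored 1831 and 1730 in Rb1L/L 1 and 2 and 1106 and 2043 in WT 1 and 2. CAP-H2 peaks covered 3461 bp of it in Rb1L/L and 3180 bp in WT, while CAP-D3 covered 3 bp in Rb1L/L and 1713 bp in WT. From 47704761 to 47707576 (2816 bp), H3K27me3 scored 287 and 109. TFIIIC scored 3100 in both Rb1L/L libraries, a value tied among 850 and 2254 peaks of those lists. It scored 609 and 1948 in WT 1 and 2. CAP-H2 covered 1595 bp of that region in Rb1L/L and 2803 bp in WT, and CAP-D3 was called there in neither genotype.

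Condensin II was rare at WT-only regions in both genotypes. CAP-D3 peaks overlapped 7 of 655 regions in Rb1L/L (1.07%, 95% exact binomial interval 0.431 to 2.19) and 10 in WT (1.53%, 0.734 to 2.79). CAP-H2 peaks overlapped 10 in Rb1L/L (1.53%, 0.734 to 2.79) and 8 in WT (1.22%, 0.529 to 2.39). Over all merged H3K27me3 regions the shares were 1.71% and 2.07% for CAP-D3 in Rb1L/L and WT, and 1.89% and 1.87% for CAP-H2. In regions of 1 WT and 1 Rb1L/L library they were 1.13% and 1.21% for CAP-D3 and 1.15% and 1.03% for CAP-H2, inside the intervals of the WT-only regions. Regions of all 4 H3K27me3 libraries, which are wider, had CAP-D3 in 8.36% and 10.1% and CAP-H2 in 5.74% and 5.79%. With 1 library per genotype no test was possible, and the H3K27me3 libraries WT 2 and Rb1L/L 1 share their input with the condensin II libraries of their genotype.

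Any condensin II peak was found at 17 of the 655 regions (2.60%, against 3.74% of all merged regions). CAP-D3 was called in both genotypes at 6 of the 655 (0.916%, against 1.27% of all merged regions) and CAP-H2 at 7 (1.07%, against 1.40%). CAP-D3 was called in Rb1L/L and not in WT at 1 of the 655 (0.153%, against 0.443% of all merged regions) and in WT and not in Rb1L/L at 4 (0.611%, against 0.795%). CAP-H2 was called in Rb1L/L alone at 3 (0.458%, against 0.494%) and in WT alone at 1 (0.153%, against 0.474%). With 1 library per genotype, no test of these differences was made.

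Both subunits in both genotypes were called at 3 of the 655 regions (0.458%, against 0.551% of all merged regions). Beside the wide regions on chromosomes 8 and 6 just described, this was chromosome 5 from 115939598 to 115940565, where CAP-D3 scored 3100 in Rb1L/L and 2528 in WT and CAP-H2 scored 3100 in Rb1L/L and 2758 in WT. The H3K27me3 scores there were 164 and 87.8, and the WT peaks shared 122 bp. Both subunits were called at 4 of the 655 in Rb1L/L (0.611%, against 0.788% of all merged regions) and at 4 in WT (0.611%, against 0.841%). No WT-only region had both subunits in one genotype and neither in the other. Of the 93 regions more than 5 kb from a mutant H3K27me3 peak, 4 carried CAP-D3 in each genotype (4.30%) and 5 carried CAP-H2 in each (5.38%). Without the 63139 bp region, left out after its values were seen, it was 3 of 92 (3.26%) and 4 of 92 (4.35%) in each genotype. Among 1870 regions of 1 WT and 1 Rb1L/L library that lay more than 5 kb from any peak of the libraries lacking them, CAP-D3 was called at 2.35% in Rb1L/L and 2.14% in WT, and CAP-H2 at 2.41% in Rb1L/L and 2.19% in WT. Over all merged regions the shares were 1.71% to 2.07%, and the difference was not tested. Few regions make up the counts among the 93, and some recur. The region of chromosome 5 named above, for example, is counted for both subunits in both genotypes.

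TFIIIC peaks overlapped more WT-only regions in the mutant than in WT. They were called at 181 and 194 of the 655 regions in Rb1L/L 1 and 2 (27.6% and 29.6%) and at 97 and 138 in WT 1 and 2 (14.8% and 21.1%). The means were 28.6 ± 1.403% in Rb1L/L and 17.9 ± 4.43% in WT (SD, n = 2 each), and both Rb1L/L libraries lay above both WT libraries. The same order held over all merged regions, with 25.7 ± 0.883% in Rb1L/L and 15.7 ± 3.06% in WT, and in regions of 1 WT and 1 Rb1L/L library, with 27.4 ± 0.954% and 16.7 ± 3.62%. The difference of 10.7 percentage points at WT-only regions stood beside 10.1 over all merged regions, 10.7 in the mixed classes and 12.8 at regions of Rb1L/L alone. A two-sided exact permutation test of 2 against 2 libraries cannot go below 0.333, and none was made on these chosen regions.

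The TFIIIC lists also differed in length, with 286175 and 291040 peaks on chromosomes 1 to 19 in Rb1L/L and 195239 and 230951 in WT. With 195239 top-scoring peaks from each, TFIIIC was called at a mean of 21.8% of WT-only regions in Rb1L/L and 17.0% in WT. The difference was then 4.81 percentage points, under the 10.7 of the full lists. At equal list lengths it was not computed for other classes, so whether it is particular to WT-only regions is not known. By library, these shares were 21.2% and 22.4% in Rb1L/L and 14.8% and 19.2% in WT.

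Single regions with TFIIIC in one genotype and not the other were few. TFIIIC was called in at least 1 library at 293 regions (44.7%, against 41.1% of all merged regions) and in none at 362 (55.3%), and 25 (3.82%, against 4.13% of all merged regions) had it in all 4. TFIIIC was present in both Rb1L/L and neither WT library at 32 regions (4.89%, against 5.25% of all merged regions). It was present in both WT and neither Rb1L/L library at 6 (0.916%, against 0.602%). Of the 32, the region with the highest lower H3K27me3 score of the 2 WT libraries was that on chromosome 2 from 164801477 to 164802977, with TFIIIC scores of 601 and 315 in Rb1L/L 1 and 2. Of the 6, by the same measure, it was chromosome 14 from 64131395 to 64132667, with H3K27me3 scores of 319.85 and 310.5 in WT 1 and 2. TFIIIC scored 130.3 and 226 there in WT 1 and 2. In all, 354 WT-only regions (54.0%) had neither TFIIIC nor condensin II, close to 53.9% in the mixed classes and 57.2% over all merged regions.

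**Figure D5:**
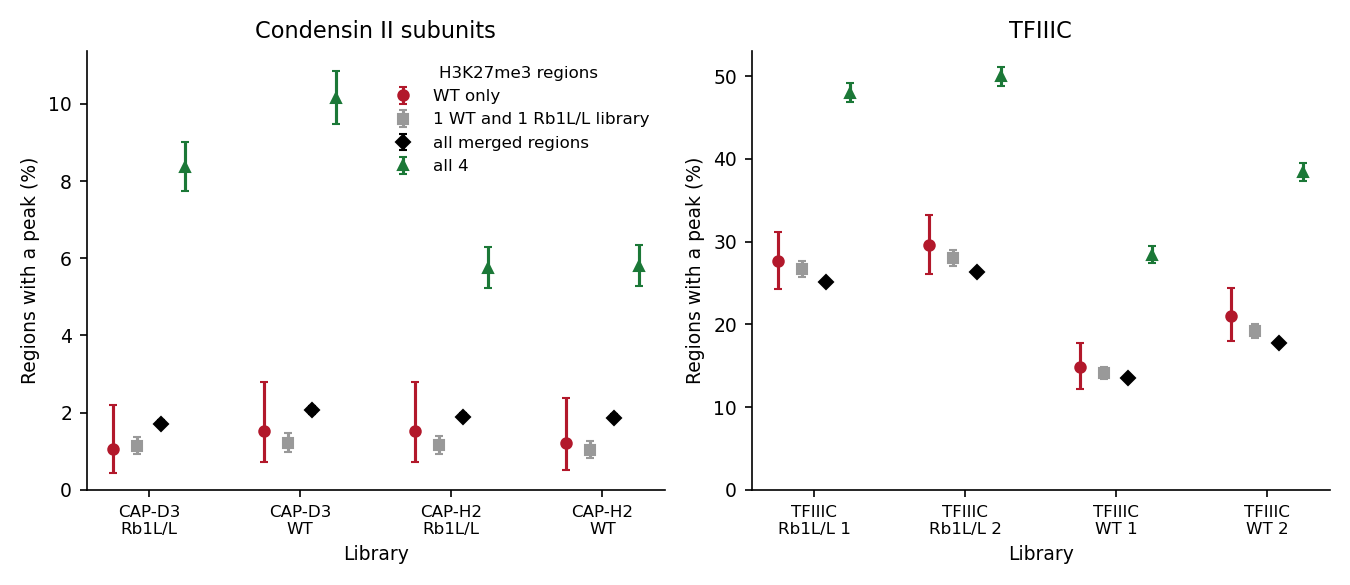
Share of H3K27me3 regions overlapped by a peak (y axis, %) in each CAP-D3 and CAP-H2 library (left) and each TFIIIC library (right), for WT-only regions, regions of 1 WT and 1 Rb1L/L library, all merged regions and regions of all 4 H3K27me3 libraries; bars are 95% exact binomial intervals. In each library the WT-only value lies near those of the pooled mixed classes and of all regions, and below that of regions of all 4 libraries. For TFIIIC in Rb1L/L 1 these values are 27.6%, 26.7%, 25.1% and 48.0%.

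The share of a library's TFIIIC peaks that fell in a window of 1 Mb was tested for a change between genotypes. A window is far wider than a WT-only region (median 891 bp), so a change in it need not lie near the region. All 655 regions lay in 488 windows. With limma over 2415 windows of chromosomes 1 to 19, 3 of the 488 changed at a Benjamini-Hochberg adjusted p under 0.05, where 0.166% of all windows did, and all 3 were lower in Rb1L/L. At an unadjusted p under 0.05 it was 77 of the 488 (15.8%), where 12.9% of all windows were. The 488 windows are denser in H3K27me3 regions, with a median of 70 merged regions against 17 in the other windows. The part of that in these shares was not tested. The 3 windows held 1 WT-only region each. On chromosome 10 from 79000001 to 80000000, TFIIIC had 1.20 and 1.18 per 1000 peaks in Rb1L/L and 1.67 and 1.59 in WT (log2 difference −0.45 ± 0.06 SE, limma adjusted p 0.0313). In the adjacent window, from 80000001 to 81000000, it had 1.22 and 1.16 per 1000 in Rb1L/L and 1.92 and 1.61 in WT (log2 difference −0.56 ± 0.08 SE, adjusted p 0.0419 by limma). On chromosome 17, the window between 56000001 and 57000000 had 1.18 and 1.16 in Rb1L/L and 1.56 and 1.53 in WT (log2 difference −0.40 ± 0.06 SE, adjusted p 0.0419 by limma).

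These calls depended on the scaling and on single libraries. With each library centred on its median window, none of the 488 was called (limma adjusted p of at least 0.227), with 54 at an unadjusted p under 0.05. Leaving out a TFIIIC library gave 2 calls without Rb1L/L replicate 1 and 1 call without Rb1L/L replicate 2. It gave 35 calls without WT replicate 1, of which 13 were higher and 22 lower in Rb1L/L, and 101 calls without WT replicate 2, of which 67 were higher and 34 lower. Among TFIIIC peaks with a score of at least 100, 19 windows were called, 10 higher and 9 lower in Rb1L/L. Calls were thus not all lower in Rb1L/L at every setting, and the 3 windows themselves were not followed across settings. The median log2 difference was 0.02 over the 488 windows and −0.01 over all windows. Among the 488 windows, the smallest p for a higher share in Rb1L/L belonged to chromosome 12, between 29000001 and 30000000 (0.774 and 0.802 per 1000 in Rb1L/L, 0.515 and 0.617 in WT, log2 difference 0.48 ± 0.10 SE, limma adjusted p 0.0974), which did not pass.

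WT-only regions were spread over all 19 chromosomes. They made up between 0.444% of the merged H3K27me3 regions on chromosome 19 (12 of 2705) and 0.968% on chromosome 7 (57 of 5886). The exact binomial intervals of these extremes overlapped, at 0.229 to 0.774 and 0.734 to 1.25. Neighbouring regions stood a median of 1379 kb apart, with 66 of 636 neighbouring pairs within 100 kb and 12 within 5 kb. Of the 488 windows of 1 Mb with a WT-only region, 360 held 1, 97 held 2 and 31 held 3 or more.

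Since WT-only regions are themselves merged H3K27me3 regions, a window that holds one tends to hold more of all, and the counts of windows are a description. The 488 windows held a median of 70 merged H3K27me3 regions and 6 regions of all 4 libraries, against 17 and 1 in the other windows. Over 2336 windows with any H3K27me3 region, the number of WT-only regions and of all regions had a Spearman correlation of 0.51 and a Pearson correlation of 0.55, both from the same lists. The densest window, chromosome 15 from 102000001 to 103000000, held 5 WT-only regions among 153, with 36 regions of all 4 libraries and 9 of Rb1L/L alone. Its share of TFIIIC peaks was 0.494 and 0.551 per 1000 in Rb1L/L and 0.545 and 0.582 in WT (log2 difference −0.11 ± 0.09 SE, limma adjusted p 0.658). Several windows held 4 WT-only regions. The one with the fewest merged regions, chromosome 7 from 77000001 to 78000000, had 4 among 52, with 5 of all 4 libraries and 1 of Rb1L/L alone. The others with 4 held 127 to 154 merged regions.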

How the data were processed

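The submitters' processing notes name Bowtie2 2.3.0, MACS 1.4.0rc2 and the mm9 build, without settings. The 12 deposited lists, 1 per immunoprecipitated library, give positions and a peak score that the authors left without a column name. The 8 inputs have no list analysed here, and read depth is not known.

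Peaks were merged with Python 3.11.15 and pandas 2.3.3; an overlap needs 1 bp unless stated. Coordinates are 1-based. TFIIIC peaks were counted by midpoint in 1 Mb windows averaging 5 peaks or more. Each library's share of peaks per 1000 was taken as log2 after adding 0.5 peaks, and fitted with limma 3.58.1 in R 4.3.3 (trended variance, no block, Benjamini-Hochberg over all windows of chromosomes 1 to 19). The interval functions and the window fit were tested on simulated data. The regions, lists and tests were chosen with earlier results of these data known. Named regions are the 12 with the highest lower WT score, up to 5 at each other extreme (widest, lowest score, each state of condensin II or TFIIIC), and windows by TFIIIC p in each direction (5) or by number of regions (5); only the leading ones are named. Alternatives changed the score minimum, merging, list length, overlap rule, window size, pseudocount, filter, centring, replicate block and libraries. Gene names and sequences are not given, as the annotation at hand was of another build.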

Additional observations from a re-analysis of the deposited data

Results flagged for a closer look

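H3K27me3 peaks on chromosome X, which the choice of regions left out, were unevenly spread over the libraries. There were 340 and 766 in Rb1L/L replicates 1 and 2, and 106 and 3034 in WT replicates 1 and 2. On that chromosome, 3 regions had a peak in both WT and neither Rb1L/L library, against 19 with a peak in both Rb1L/L and neither WT library.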

How the results depend on the processing

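The number of WT-only regions (655) was 710 at a score of at least 100, 739 at equal list lengths, 406 with gaps of up to 1 kb merged and 93 with no Rb1L/L peak allowed within 5 kb. Leaving out a library, which drops a criterion, gave 1211 to 15133. The median width (891 bp) was 907, 1239, 907, 992 and 889 bp at a score of at least 100, with gaps merged, with no Rb1L/L peak within 5 kb, at equal list lengths and without regions found in all 12 lists, and 590 to 961.5 bp without a library. The share within 5 kb of a region of all 4 libraries (26.6%) was 16.01% with gaps merged and 0% by construction with no Rb1L/L peak within 5 kb. Without a library it was 22.0% to 37.4%, measured to regions of all the libraries that remained. CAP-D3 and CAP-H2 shares with no Rb1L/L peak within 5 kb were 4.30% and 5.38% in each genotype. CAP-D3 was 0.406% in Rb1L/L at equal list lengths and 0.611% in WT with 50% of the region covered, and CAP-H2 with peaks within 1 kb was 3.97% in Rb1L/L and 2.60% in WT. The mean TFIIIC share in Rb1L/L (28.6%) was 34.1% with gaps merged, 31.7% with no Rb1L/L H3K27me3 peak within 5 kb, 30.0% at equal H3K27me3 and 21.8% at equal TFIIIC list lengths, 17.8% with 50% covered and 47.7% within 1 kb, and in WT (17.9%) it was 22.5%, 24.2%, 10.1% and 31.5% with gaps merged, no peak within 5 kb, 50% covered and within 1 kb. Without a library these means were 19.7% to 29.8% in Rb1L/L and 11.8% to 21.1% in WT. Rb1L/L minus WT was 16.3 points within 1 kb and 4.81 at equal TFIIIC list lengths, 7.56 to 13.8 without a library, and above 0 in every alternative run. Windows called by limma (3) were 19 at a TFIIIC score of at least 100 (10 higher and 9 lower in Rb1L/L), 0 with centring and 1 to 101 without a library, where a lone library is assumed to vary like the pair. With the replicate block 17 windows were called, 9 higher and 8 lower; the labels do not say what a number shares, and same-numbered libraries deviated together with a correlation of 0.293 over 2415 windows. The causes were not tested. Without the widest region, an alternative chosen after seeing the data, the number was 654, the median width 890 bp and the CAP-D3 shares 0.917% in Rb1L/L and 1.38% in WT.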
